A study of Mus musculus with 10 samples.

Results

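The peaks described here are the 854 entries of the Mettl14 knockout (KO) m6A peak list that lie in a gene with no wild-type (WT) peak and share no exonic base with any WT peak on the same strand. They were 854 of the 3733 peaks of the KO list (22.9%) and fell in 799 of its 2879 gene names (27.8%). They are called KO-only peaks here, a name for their place in the 2 lists and not for the methylation of a transcript. They were chosen by the gene names and positions of the 2 lists, so their number and their absence from the WT list are a description and carry no test. All 854 KO peaks with an absent gene name met the overlap condition too, since none of them shared an exonic base with a WT peak.

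The study mapped N6-methyladenosine (m6A) by immunoprecipitation (IP) of RNA with an anti-m6A antibody and sequencing, each IP library with an Input library of the RNA before IP. The labels give P5 mice and name the tissue cortex/hippocampus, and all groups share that tissue and age. The WT group held 3 IP and 3 Input libraries, and the KO group, in which Nestin-Cre drives the loss of Mettl14, held 2 IP and 2 Input libraries; the strain and the alleles of the control mice are not stated in the labels. Whether a library is 1 animal or a pool is also not stated. Nestin-Cre acts in neural progenitors and their descendants, so microglia, blood and vessel cells keep the gene, which limits the KO group as a model of a tissue without METTL14. The labels name a culture medium beside the tissue, and whether cells were cultured before RNA was taken is not stated.

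The deposited data were 1 consensus peak list per genotype, with 15091 peaks in 7717 gene names for WT. Each peak has 1 position, 1 set of exonic blocks and 1 deposited p-value, and no value per library, so sequencing depth is unknown and no peak has a replicate error. Intervals given with shares are Wilson 95% intervals that cover the number of peaks alone; peaks are not replicates, and differences between groups of peaks were not tested. The labelled tissue was visible in both lists: 5 of 6 fixed neuron markers and 4 of 4 astrocyte markers had a WT peak, and 5 and 3 of them had a KO peak. The 4 oligodendrocyte lineage markers had WT peaks and no KO peak, and of 4 microglia and 3 endothelium markers, 3 and 3 had a WT peak and 1 and 1 a KO peak. None of these 21 markers held a KO-only peak. Mettl14 itself had 1 WT peak and no KO peak.

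METTL14 pairs with METTL3 to form the core of the enzyme complex that writes m6A on nascent transcripts, with METTL14 helping to bind the RNA. In most tissues the mark sits at adenosines within a short motif around GGAC and gathers in long exons and near stop codons of messenger RNAs. Proteins that read the mark steer splicing, export, translation and decay, and in the developing cortex the mark is known for its part in the timing of neurogenesis.

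Sequences could be read only for KO-only peaks that touch a promoter window or a microRNA of the RefSeq tables for GRCm38.p6, in which a promoter window runs from 250 bases before to 50 bases after a gene's start. Coordinates here and throughout are GRCm38, counted from 1. The set shown first is the 1 microRNA gene among the KO-only peaks, Mir1198, because its peak and its RefSeq hairpin had the same first and last base, chrX:7807101-7807221 on the plus strand. In the hairpin, capitals mark the 2 mature microRNAs, and in each mature sequence capitals mark the seed, bases 2 to 8.
Mir1198 hairpin: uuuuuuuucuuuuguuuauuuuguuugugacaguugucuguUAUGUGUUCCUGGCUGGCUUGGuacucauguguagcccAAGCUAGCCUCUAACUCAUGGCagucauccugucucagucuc
mmu-miR-1198-5p: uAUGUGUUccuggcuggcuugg
mmu-miR-1198-3p: aAGCUAGCcucuaacucauggc
The 121 bases of this peak carried a deposited p-value of 6.3e-15, and the seeds of the 2 arms differ from each other. The gene lies inside Gripap1, which had a WT peak, and the nearest WT peak on the plus strand stood 2606 bases away.

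The next set shows the 6 KO-only peaks in noncoding genes, chosen after their values were seen because the tables held at least 50 of their bases. Capitals mark GGAC, searched as those letters on the transcript strand. Gm5069 is a transcribed pseudogene at chr1:180330340-180330460 on the minus strand, opposite the promoter of Itpkb, whose window supplied the bases. The bases of 4930467D21Rik are chr5:97392417-97392507 (+), those of F930015N05Rik are chr11:64435082-64435144 (-), and those of Dreh are chr17:64767111-64767160 (+). The bases of Gm11413 are chr4:83390619-83390668 (-) and those of Gm31747 are chr6:73608624-73608673 (-). GGAC was present in F930015N05Rik and Dreh, 1 match each, and not in the other 4 stretches.
Gm5069: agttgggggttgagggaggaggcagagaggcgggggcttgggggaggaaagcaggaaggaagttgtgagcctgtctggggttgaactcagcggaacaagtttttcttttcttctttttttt
4930467D21Rik: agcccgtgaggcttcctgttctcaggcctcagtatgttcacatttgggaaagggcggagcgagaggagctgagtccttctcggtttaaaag
F930015N05Rik: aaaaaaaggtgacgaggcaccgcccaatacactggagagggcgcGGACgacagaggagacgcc
Dreh: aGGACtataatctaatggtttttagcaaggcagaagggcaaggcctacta
Gm11413: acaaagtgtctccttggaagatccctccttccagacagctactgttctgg
Gm31747: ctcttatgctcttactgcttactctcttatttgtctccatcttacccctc
For 4 protein-coding genes the tables held a GGAC within the peak, and 30 bases around it are shown for that reason: Hepacam2 at chr6:3494459-3494488 (-), Cpt1c at chr7:44974822-44974851 (-), Slc17a1 at chr13:23869018-23869047 (+) and Col17a1 at chr19:47692011-47692040 (-).
Hepacam2: cgccgcatgcatgGGACaggatgcttttat
Cpt1c: agGGACagaacgcggagggatcggaggagg
Slc17a1: attcacaaggtGGACattgaacaactacta
Col17a1: cgcacctttgtcaGGACttgttttttgaag
Bases were known for 30 KO-only peaks, 1510 bases in all, and 7 of the 30 (23.3%) held GGAC, at 4.64 matches per kb. The same count gave 17.4% of 138 other KO peaks and 27.9% of 907 WT peaks, at 3.71 and 6.02 matches per kb. Of the 32851 promoter windows, 18.9% held GGAC in their first 50 transcribed bases, at 4.20 matches per kb. These known stretches differ in length and lie mostly at gene starts, so the shares describe those stretches and not the KO-only peaks as a whole.

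Distance from the WT list is in part fixed by the rule, which took out every gene with a WT peak, and is given as a description. The median distance from a KO-only peak to the nearest WT peak on its strand was 217 kb, with quartiles of 82.0 and 533 kb. Just inside the rule, the nearest was Gm36712, 638 bases from a WT peak of Son, followed by 2900092D14Rik at 1889 bases, Gm20517 at 1977 bases and Mir1198. Hif3a, a hypoxia-inducible factor subunit, stood 3138 bases away, and Fitm1, Dmpk and Cisd3 stood 3528, 3591 and 3602 bases away. Just outside the rule stood the 762 KO peaks that shared no base with a WT peak but lay in a gene that had one; their median distance to a WT peak was 2.33 kb, with quartiles of 0.623 and 11.97 kb. The nearest of them were peaks of Dcp1b, at 28 bases, and of Ap3d1 and Cdk5r2, at 29 bases, chosen after their values were seen. No KO peak with an absent gene name shared a base with a WT peak. In all, 23 KO-only peaks lay within 10000 bases of a WT peak, and 23 lay inside the span of another gene that had one, such as Gm5069 in Itpkb and Prkag2os1 in Prkag2. No KO-only peak shared a base with a WT peak of the opposite strand, while 19 other KO peaks did. The other 2879 KO peaks lay in 2080 genes with a WT peak; of them 2117 shared bases with a WT peak and 762 lay elsewhere in such a gene.

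By gene type, 686 KO-only peaks fell in 640 protein-coding genes and 140 in 132 long noncoding RNA (lncRNA) genes. A further 22 fell in 22 transcribed pseudogenes, and 1 each in the antisense RNA Emx2os, the microRNA Mir1198 and the pseudogene Gm9159. The remaining 3 peaks carried the natural killer cell receptor names Klra15 and Klra18, which the gene table did not hold. The lncRNA share was 16.4% (14.06 to 19.03) of KO-only peaks, against 1.60% (1.20 to 2.12) of the other KO peaks. Among WT peaks the lncRNA share was 1.64%, and among the 9737 WT peaks in genes without a KO peak it was 1.88%. Pseudogenes took 2.69% of KO-only peaks and 0.0695% of the other KO peaks. Names of the predicted Gm and Rik kinds took 17.7% (15.3 to 20.4) of KO-only peaks, 1.67% of the other KO peaks and 2.77% of WT peaks. Without Gm and Rik names the lncRNA share of KO-only peaks was 3.27%. No matching share without these names is given for the other sets, so this value cannot be set against theirs. With the WT list shortened to its 3733 strongest peaks, 1832 KO peaks would be KO-only, with an lncRNA share of 8.90%; within the stronger 50% of the KO list 280 were KO-only, and without the p-values described further on as recurring, 385 were, with an lncRNA share of 9.87%.

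**Figure D1:**
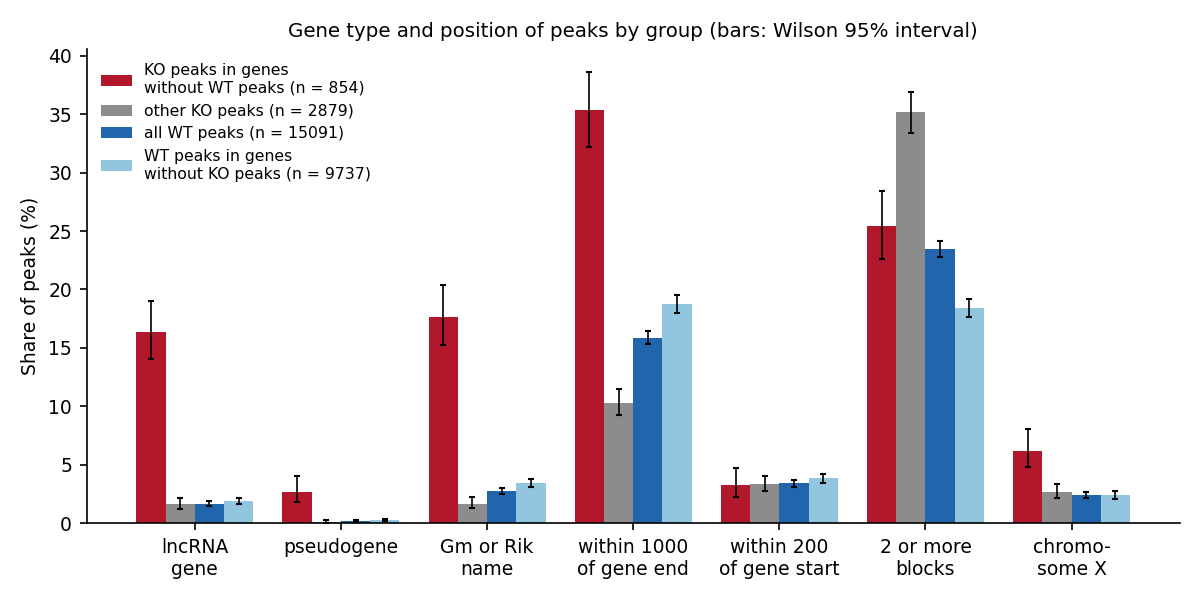
Share of peaks (%, vertical axis) by gene type, name kind, position and chromosome (horizontal axis) in 4 sets of peaks, with Wilson 95% intervals as bars. KO-only peaks (red) stood highest for lncRNA genes (16.4%), pseudogenes (2.69%), Gm or Rik names (17.7%), the last 1000 bases of the gene (35.4%) and chromosome X (6.21%); the shares near the gene start were 3.28% to 3.83% in all 4 sets.

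The last 1000 bases of the gene held a larger share of KO-only peaks than of the other sets, in a comparison without a test. The midpoint of 302 KO-only peaks (35.4%, 32.2 to 38.6) lay within 1000 bases of the end of the gene's span, against 10.3% (9.26 to 11.5) of the other KO peaks. The value was 15.9% for all WT peaks and 18.8% for WT peaks in genes without a KO peak. In a window of 5000 bases the shares were 62.9% for KO-only peaks and 62.1% for WT peaks in genes without a KO peak. They were 56.2% for all WT peaks and 44.8% for the other KO peaks in that window. The last 250 bases alone held 16.3% of KO-only peaks with a known gene span, against 1.60% of the other KO peaks and 2.62% of WT peaks. Among protein-coding genes alone, 34.5% of KO-only peaks lay within 1000 bases of the end, against 10.2% of the other KO peaks and 15.7% of WT peaks. Among lncRNA genes the values were 51 of 140 KO-only peaks (36.4%, 28.9 to 44.7), 8 of 46 other KO peaks (17.4%, 9.09 to 30.7) and 53 of 248 WT peaks (21.4%, 16.7 to 26.9). The lncRNA intervals of KO-only and other KO peaks overlap, and the median spans of these genes were 12.5, 15.7 and 8.54 kb. Among the lncRNA genes the last 250 bases held 33 of 140 peaks. Only the span of each gene was known, so stop codons, UTRs and exons could not be placed, and 3 KO-only peaks had a midpoint outside the RefSeq span of their gene name.

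**Figure D2:**
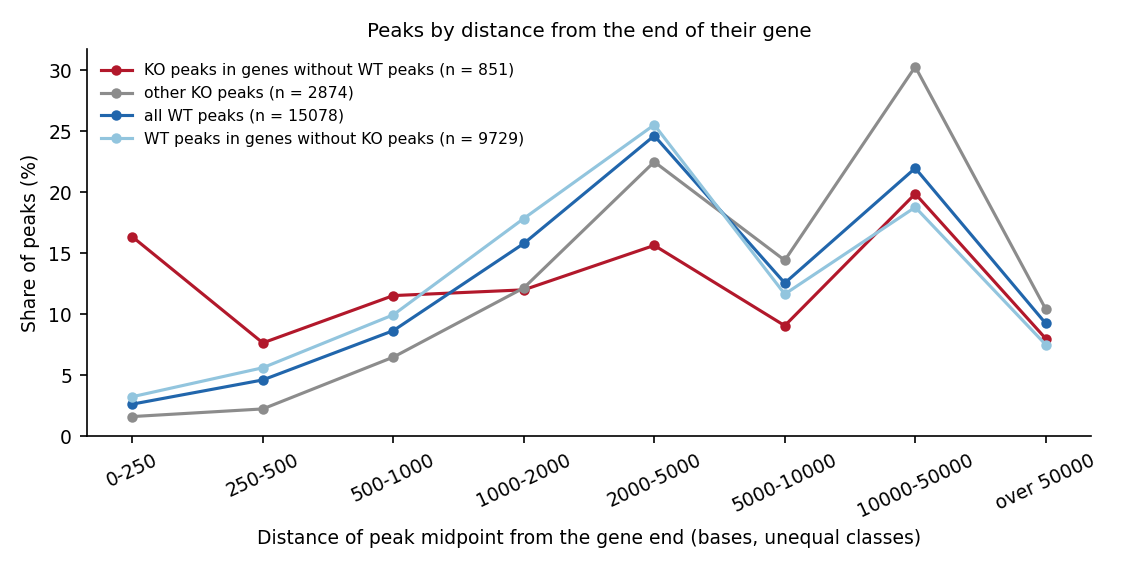
Share of peaks (%) in classes of distance between the peak midpoint and the gene end (bases; the classes are unequal) for 4 sets of peaks with a known gene span. KO-only peaks (red) were at 16.3% in the class nearest the end, where the other sets were at 1.60% to 3.23%, and at 15.6% in the class of 2000 to 5000 bases, where the other sets were at 22.5% to 25.5%.

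By median exonic width over all p-values, the KO-only peaks were the shortest set. Their median exonic width was 150 bases (95% interval of the median 149 to 150, quartiles 91 and 181, range 59 to 805). The other KO peaks had a median of 179 bases, WT peaks of 208 bases and WT peaks in genes without a KO peak of 180 bases. At the p-values described further on as recurring, the order was reversed, with medians of 147 bases for KO-only and 121 bases for other KO peaks. At other p-values the medians were 151 and 180 bases. A KO-only peak was spliced, with 2 or more exonic blocks, in 217 cases (25.4%, 22.6 to 28.4), against 35.2% of the other KO peaks and 23.4% of WT peaks. At recurring p-values this share was 27.7% for KO-only and 23.3% for other KO peaks, and at other p-values 22.6% and 36.8%. Together the KO-only peaks covered 131 kb of the 661 exonic kb summed over the KO list (19.9%). Their genes had a median span of 26.0 kb (23.5 to 29.9), against 42.0 kb for the other KO peaks and 33.6 kb for WT peaks. WT peaks in genes without a KO peak had a similar median span of 27.7 kb, so short genes were not particular to the KO-only peaks. Of the 799 genes, 748 held 1 KO-only peak, 47 held 2, and Kcnq1ot1, Usp17la, Sfi1 and Vamp5 held 3. Chromosome X carried 53 KO-only peaks (6.21%, 4.78 to 8.03) against 2.71% of the other KO peaks, and chromosome 12 carried 13 (1.52%) against 3.82%.

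The deposited p-values of the KO-only peaks were weaker than those of the rest of the KO list. Their median was 1.3e-12, with quartiles of 3.2e-18 and 1.2e-09, against medians of 4e-17 for the other KO peaks and 7.9e-42 for WT peaks. When the KO list was divided by p-value into 5 classes of equal size, the strongest class held 41 KO-only peaks among 747 (5.49%, 4.07 to 7.36). The next class held 150 (20.1%), and the weakest held 225 among 746 (30.2%, 27.0 to 33.5).

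Many KO-only peaks carried the very same p-value. A recurring p-value is defined here as a value above 0 shared by 20 or more KO peaks; there were 22 such values. They were carried by 469 KO-only peaks (54.9%, 51.6 to 58.2), 348 other KO peaks (12.1%, 10.9 to 13.3) and 552 WT peaks (3.66%). KO-only peaks count toward the 20, and the values were taken from the KO list, so the definition in part fixes these differences. At each of the 10 values most frequent among KO-only peaks, the other KO peaks alone numbered 8 to 15 and would not have reached 20. The most frequent among KO-only peaks was 2.2e-08, with 73 KO-only peaks, 8 other KO peaks and 7 WT peaks, followed by 5.4e-10 with 66, 9.1e-07 with 60, 1.3e-11 with 57 and 3.2e-13 with 56. The 10 values most frequent among KO-only peaks lay in a regular ladder, each 39.4-fold to 50.8-fold below the one above it. Together they held 426 KO-only peaks (49.9%) and 118 other KO peaks (4.10%). Because these values were picked by their frequency among KO-only peaks, the direction of that difference was set by the choice. Median width was 90 bases at 9.1e-07, 150 bases at 3.2e-13 and 210 bases at 1.6e-21, with 151 bases at 3.2e-18 as the one value out of that order. KO-only peaks at recurring p-values had an lncRNA share of 21.7% (18.3 to 25.7), against 9.87% (7.28 to 13.3) at other p-values, and lay near the gene end in 39.2% against 30.6% of cases. Their genes had a median span of 20.6 kb against 36.3 kb. What gave the same p-value to many peaks was not tested, and no read counts per peak were analysed here.

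**Figure D3:**
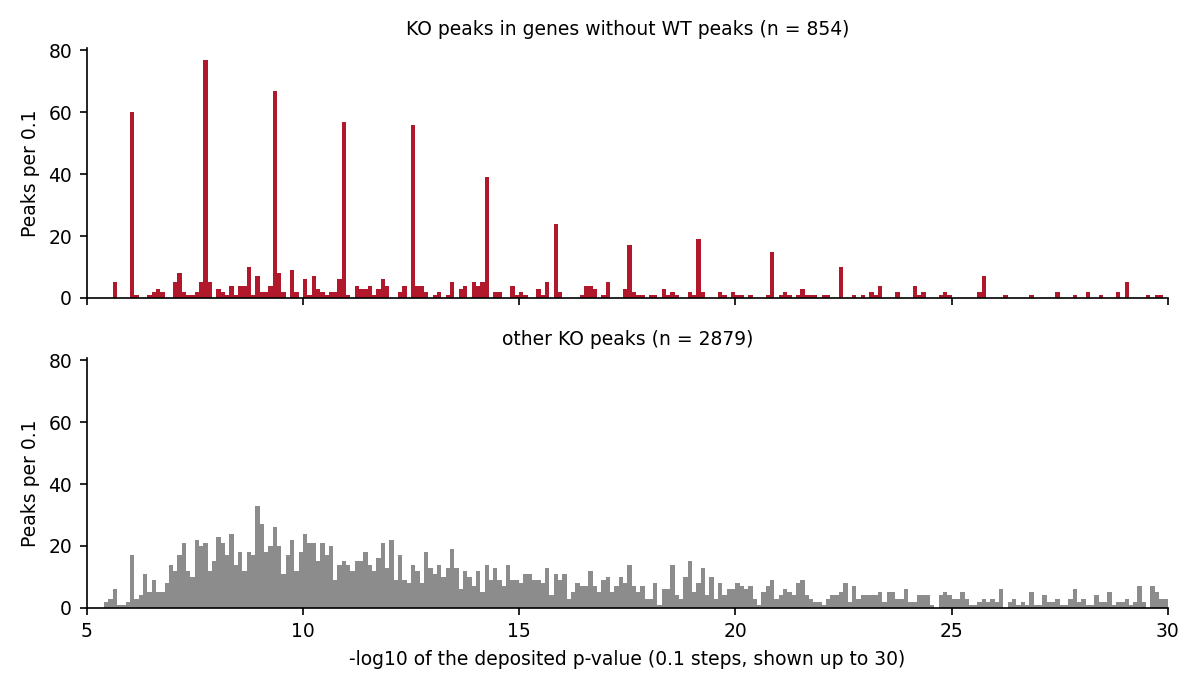
Number of peaks (vertical axis) per 0.1 step of the deposited p-value on a −log10 scale (horizontal axis, shown up to 30) for the 854 KO-only peaks (red) and the 2879 other KO peaks (grey). The red bars stand in evenly spaced spikes, the tallest around 2.2e-08, a value carried by 73 peaks, while the grey bars form a broad hump.

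**Figure D4:**
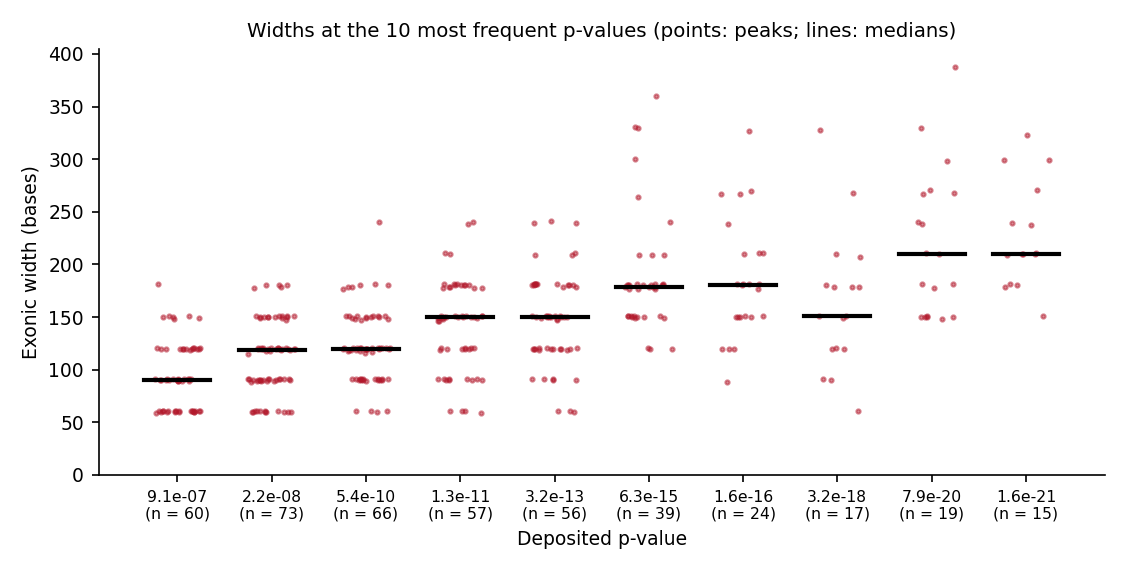
Exonic width (bases) of the KO-only peaks at each of the 10 most frequent deposited p-values; points are peaks, spread sideways at random, and lines are medians. The median was 90 bases at 9.1e-07, 120 at 5.4e-10, 150 at 1.3e-11 and 210 at 1.6e-21.

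The lncRNA genes included transcripts known for a part in gene silencing. Kcnq1ot1, the imprinted antisense transcript that silences its neighbours, held 3 peaks of 61, 391 and 420 bases, with p-values of 2.3e-09, 1.3e-19 and 1.3e-23. It was the 1 KO-only gene among 11 imprinted genes with a KO peak. Jpx, which activates Xist, held a peak of 330 bases at chrX:103503253-103503582 with a p-value of 4e-76. Ftx, another transcript of the X-inactivation centre, held 2 peaks of 91 and 151 bases at p-values of 3.2e-12 and 5e-13. With the pseudogene Gm9159 these formed a run of 4 KO-only peaks between chrX:103503253 and chrX:103563097, while Xist and Tsix held no peak in either list. Firre, an X-linked transcript of nuclear organisation, held 1 peak of 61 bases at 8.3e-09. Ftx, Gm9159 and Firre were chosen after their values were seen.

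Other lncRNA peaks stood out by width. Gm15506 held 570 bases at chr7:98686952-98687521 with a p-value of 6.3e-80, the lowest among the lncRNA genes. Gm42274, 4932412D23Rik, E330033B04Rik, A330076C08Rik and Gm6117 held single peaks of 298 to 359 bases, and Gm11240 held a peak of 3 blocks and 322 bases at 1e-54. Gm43915 and Gm20554 held 2 peaks each, all at recurring p-values. Of the 140 lncRNA peaks, 102 (72.9%) stood at a recurring p-value, against 347 of 686 in protein-coding genes (50.6%). Antisense names were Emx2os, opposite the cortical patterning gene Emx2, with 150 bases at 1.6e-16, and Prkag2os1, with 181 bases in 3 blocks at 7.9e-24. Emx2 itself had 1 peak in each list. Foxd2os, Foxl2os, Ccdc34os and Ctcflos were also KO-only; antisense and host transcripts gave 9 of 13 KO genes by a name pattern that also took Icos, the costimulatory receptor of T cells.

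Gene groups were read against the 27.8% of all genes in the KO list that had no WT peak. The lists were drawn up from general knowledge of tissues and gene families, with earlier results of these data known, and a count over a list is a description. Sensory receptors, blood and lymphocyte regulators and germline genes, known mainly from other tissues than the forebrain, stood at the full share, and neuron and synapse genes at 2 of 31. Glial genes stood at 3 of 7, and with so few genes this is not read as different from the share of all genes. Lists not drawn up by brain cell type also stood low, such as imprinted genes at 1 of 11 and zinc finger proteins at 8 of 68.

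**Figure D5:**
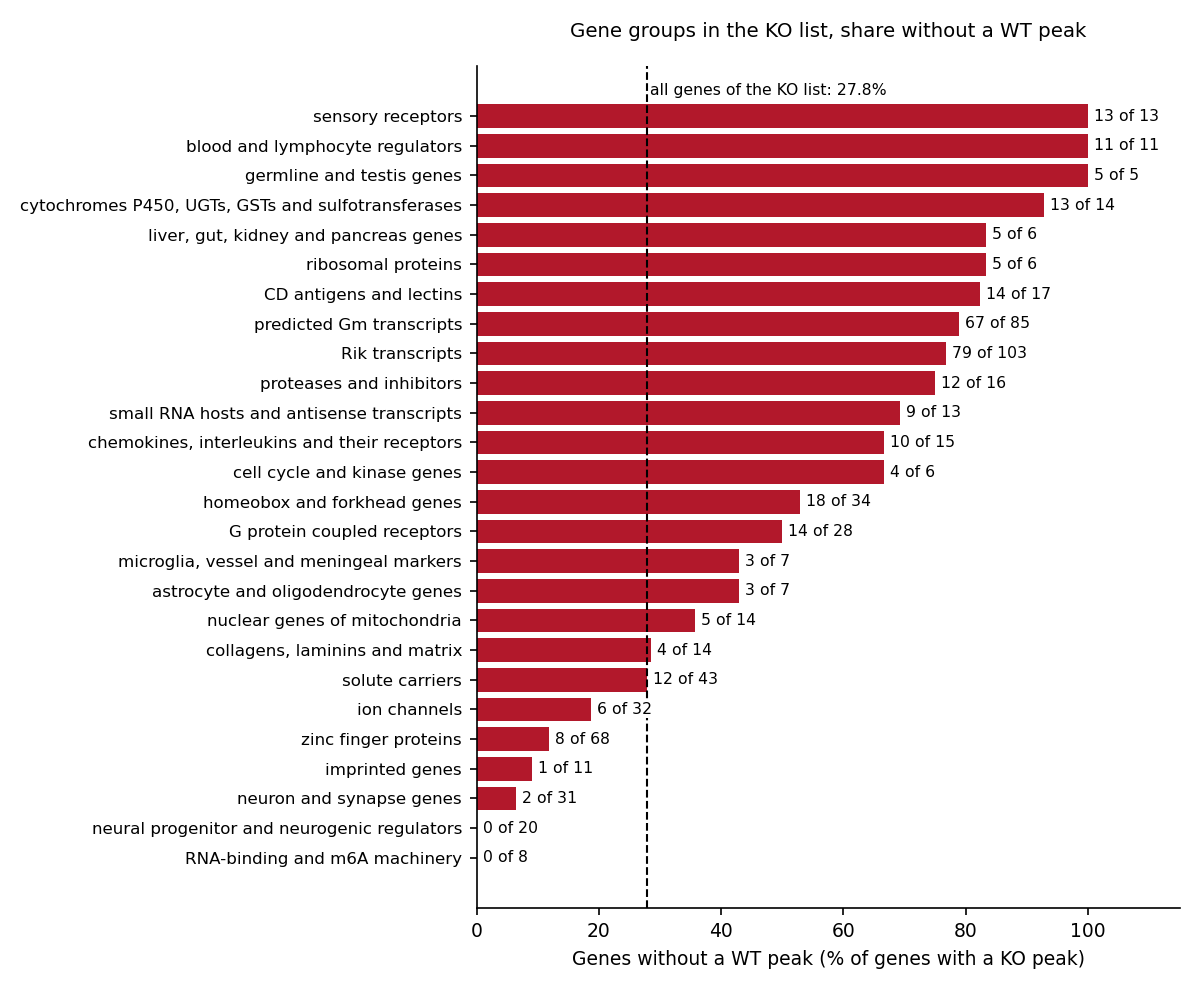
For each gene list with at least 5 genes in the KO list, the share of those genes without a WT peak (%, horizontal axis; counts beside the bars; the dashed line marks 27.8% for all genes of the KO list). Sensory receptors (13 of 13), blood and lymphocyte regulators (11 of 11) and germline genes (5 of 5) stood at the top, and neuron and synapse genes (2 of 31), neurogenic regulators (0 of 20) and m6A machinery (0 of 8) at the bottom.

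Blood and lymphocyte regulators were KO-only in 11 of 11 cases: Cd3e, Cytip, Dock2, Ebf1, Gata1, Gata3, Ikzf2, Pax5, Runx1, Runx3 and Vav1. Cd3e, a signalling subunit of the T-cell receptor, held 387 bases at chr9:44998981-44999367 with a p-value of 2e-41. Cytip, a partner of cytohesin in lymphocytes, held peaks of 569 and 150 bases at 2e-46 and 6.3e-15. Pax5, the master regulator of B-cell identity, held 361 bases within 183 bases of its gene end at 4e-53 and 271 bases at its gene start at 7.9e-20. Runx3 likewise held a peak at each end of the gene, of 360 bases at 6.3e-15 and of 150 bases at 1.3e-11. Gata3, a T-helper regulator, held 328 bases at 3.2e-18 and a spliced peak of 120 bases at 2.2e-08. Of the 15 peaks in this group 9 stood at a recurring p-value, and 5 genes of the group's 52 had a WT peak.

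Cell-surface receptors of immune cells followed. CD antigens and lectins were KO-only in 14 of 17 cases, and 15 of their 16 peaks stood at a recurring p-value. Cd84, a lymphocyte adhesion receptor, held 2 peaks of 180 and 61 bases at 1.3e-11 and 9.1e-07. The natural killer receptors Klra4, Klra15, Klra18 and Klra22 were 4 names over 1 spliced region at chr6:130053013-130059660 (-), all at 6.3e-15, so they count as 1 region. Chemokines, interleukins and their receptors were KO-only in 10 of 15 cases, 8 of the 10 peaks at a recurring p-value. Among them Cxcl11 held 209 bases at 3.2e-13, and Cxcr4, the receptor of Cxcl12 that guides interneuron migration, held 150 bases at 9.3e-10. Ciita, the transactivator of class II antigen presentation, held 391 bases at 7.9e-25, and Gbp7, an interferon-induced GTPase, held 330 and 151 bases at 4e-31 and 6.3e-13.

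Sensory receptors were KO-only in 13 of 13 cases, 11 of them olfactory and 2 vomeronasal receptors, while 1 of the 1846 genes of this list had a WT peak. Their peaks were 60 to 211 bases wide, 12 of 13 stood at a recurring p-value and 11 of 13 lay within 1000 bases of the gene end. Several of these genes are so short that the window covers their whole span, so this count says little about position. Olfr1085, counted among the 11, spans 942 bases, and its peak midpoint lay 132.5 bases from the gene start. Olfr1033 held 211 bases at chr2:86044299-86044509 with a p-value of 7.9e-20, and Olfr492 held 178 bases at 1.3e-11. The pseudogene Olfr856-ps1 held 210 bases at 4e-23, the 1 peak of the group outside the recurring values.

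Germline genes were KO-only in 5 of 5 cases, each at a recurring p-value. Hormad1, of the meiotic chromosome axis, held a spliced peak of 237 bases at 1.6e-21. Piwil4 and Tdrd5, of the piRNA pathway, held 151 bases each at 2.2e-08 and 5.4e-10. Spata31 and Dppa2 held 91 and 90 bases at 9.1e-07 and 2.2e-08. Ctcfl, the germline relative of the insulator protein CTCF, held 388 bases at 7.9e-20 and lay in a run with its antisense name Ctcflos and Zbp1; it was chosen after its values were seen. Usp17la, a deubiquitinase of a cytokine-induced family, held 3 peaks of 358, 179 and 61 bases, at 2e-61, 2.2e-08 and 2.2e-08.

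Homeobox and forkhead genes were KO-only in 18 of 34 cases by a name pattern that also took other genes. Among these were the antisense names Emx2os, Foxd2os and Foxl2os and the T-box gene Tbx3. Pou1f1, the pituitary regulator of growth hormone and prolactin, held the second-widest KO-only peak, 654 bases at chr16:65533891-65534544, with a p-value of 1e-133. Hoxc10 and Hoxc9 held 360 and 327 bases, 299.5 and 341 bases from their gene ends, at 2e-26 and 1.6e-16. With Hoxc8 and Hoxc4 they formed a run of 4 KO-only genes at chr15:102971419-103036467, and Hoxb8, Hoxb4 and Hoxb1 formed another at chr11:96282737-96367927. Hox genes pattern the hindbrain, spinal cord and trunk and are known as silent in the forebrain. Runs were sought after the values were seen, as 3 or more KO-only genes with gaps of at most 100 kb, and 11 were found. Not all are separate neighbouring peaks. The run of Ugt1a names and that of Pcdhgb names each lie over a single region, and the run of Klra names is a shared region and a further Klra18 peak. No count of runs among other peaks is given here, so the number is a description.

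Muscle genes were KO-only in 3 of 3 cases. Klhl31, of skeletal muscle, held 271 and 211 bases at 1.6e-21 and 1.3e-11, and the myosin gene Myh15 and the actinin gene Actn3 held spliced peaks of 151 and 149 bases. Liver, gut, kidney and pancreas genes were KO-only in 5 of 6 cases. Aqp7, a channel for water and glycerol, held 2 peaks of 298 bases near its gene end, at 7.9e-65 and 7.9e-20. F10, coagulation factor X, held 121 bases at 1.3e-11, and Onecut2 held 2 peaks of 121 bases at 2e-14 and 1.6e-13.

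Enzymes of drug and lipid metabolism were KO-only in 13 of 14 cases, all 13 peaks at a recurring p-value. Of these, 7 were the glucuronosyltransferase names Ugt1a1, Ugt1a2, Ugt1a5, Ugt1a6a, Ugt1a7c, Ugt1a9 and Ugt1a10 over 1 region of 122 bases at chr1:88219792-88219913 (+), with a p-value of 2.2e-08. The Ugt1a transcripts share their last exons, so these 7 names count as 1 region. The cytochromes Cyp2j13 and Cyp2c66 held spliced peaks of 180 and 149 bases at 5.4e-10 and 1.3e-11. Proteases and their inhibitors were KO-only in 12 of 16 cases, among them Klkb1, plasma kallikrein, with 330 bases at 6.3e-15, and Adam28 with 240 bases at 4e-23. Solute carriers stood at 12 of 43, next to the share of all genes; Slc35d1, a transporter of nucleotide sugars, held 450 bases at chr4:103173074-103173523 with a p-value of 1e-124, among the lowest of all KO-only peaks.

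The ribosomal protein list was KO-only in 5 of 6 cases, and 1 of its 5 peaks stood at a recurring p-value. Rpl4, of the large ribosomal subunit, held 208 bases at chr9:64178325-64178532 with a p-value of 3.2e-61. Rps14 held a spliced peak of 150 bases at 4e-18, and the mitochondrial ribosome genes Mrpl1 and Mrpl17 held 180 and 61 bases at 7.9e-29 and 1e-17. In the same list 47 genes had a WT peak. Nuclear genes of mitochondria were KO-only in 5 of 14 cases; Suclg2, a subunit of succinyl-CoA ligase outside that list, held 391 bases at 7.9e-60. Fkbp4, a co-chaperone of Hsp90, held 179 bases in 3 blocks at 1e-105, and Zyg11b, of a ubiquitin ligase, held 211 bases at 5e-64. Cell cycle genes were KO-only in 4 of 6 cases: Cdk6 held 390 and 181 bases at 1.6e-27 and 7.9e-19, Bub1 held 211 bases in 3 blocks at 5e-24, Kif11 91 bases at 3e-08 and E2f2 91 bases at 9.1e-07. Zinc finger proteins stood at 8 of 68, below the share of all genes; Zfp442 and Zfp937 held 2 peaks each, at p-values from 3.2e-30 to 2.5e-09.

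The listed neuronal and neurogenic genes with a KO peak mostly had a WT peak too. The neuron and synapse list held 83 genes, and its count does not cover all neuronal genes. Outside it, Dlg2, Ptprd and Thy1, chosen after their values were seen, held KO-only peaks at 4e-12, 1e-20 and 4e-31. Neuron and synapse genes with a KO peak had a WT peak in 29 of 31 cases; the 2 without one were the glutamate receptor genes Gria3, with 121 and 61 bases at 2e-11 and 3.2e-15, and Grin2a, with 121 bases at 3.2e-13. All 20 neural progenitor and neurogenic regulators with a KO peak had a WT peak, as did all 8 genes of RNA binding and the m6A machinery. Mettl4, of the same methyltransferase family as METTL14 but outside that list, held 91 bases at 1.6e-11, a recurring p-value; it was chosen after its value was seen. Glial genes were KO-only in 3 of 7 cases, among them Mog, of the myelin surface, with 151 bases at 2.5e-11, and Ugt8a, which makes the myelin lipid galactocerebroside, with 90 bases at 3.2e-13. Markers of microglia, vessels and meninges were KO-only in 3 of 7 cases: Col1a1 held 181 bases at 1e-21, Acta2 held 120 and 150 bases at 1.6e-16 and 3.2e-13, and Flt1 held 61 bases at 3.7e-10. These 3 are vessel or meningeal genes, and none of the 4 fixed microglia markers held a KO-only peak. In bulk tissue, fewer cells of a type and less RNA per cell cannot be told apart, and RNA levels were not analysed here. Ion channels stood at 6 of 32, among them Scn7a with 270 and 181 bases at 1e-29 and 1.6e-16, and the pattern for this list also took Kcnq1ot1.

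Gene names were not always separate regions. Merged by shared exonic bases, the 854 KO-only peaks made 838 regions, 6 of them with more than 1 gene name. The protocadherin names Pcdhgb1, Pcdhgb2, Pcdhgb4, Pcdhgb7 and Pcdhgb8, of neuronal self-recognition, lay over 1 region of 241 bases on chromosome 18, at p-values of 3.2e-99 to 1.6e-100. The same region carried 25 KO peaks with 25 names, and the other 20 names each had a WT peak, none of them over this region. AF366264, the widest KO-only peak with 805 bases at chr8:13835558-13836362, was the 1 KO-only peak with a p-value listed as 0.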

How the data were processed

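RNA of 10 samples was measured: m6A IP and Input libraries of WT and Mettl14 KO mice, on a stranded kit per the labels' protocols. Reads were aligned with STAR to GRCm38 per the submitters' processing notes; for the peak caller, its background model and the way replicates were joined, the sources used here give nothing. The authors deposited 1 BED12 list per genotype. Its score column, from 0 to 0.00015, was read as p-values, and whether the authors adjusted them is not stated.

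From these lists, KO entries were kept whose name was absent from the WT list and that shared fewer than 1 exonic base with a WT entry on the same strand. Names were matched to the RefSeq gene table of GRCm38.p6: 849 entries by symbol, 2 by synonym and 3 not at all. Gene type, span and distance to the gene end came from that table, which holds no exons; the strand was that of the peak. Bases came from RefSeq promoter and microRNA tables of the same build. Shares carry Wilson 95% intervals and medians carry order-statistic intervals. The value 0 was left out of the recurring p-values, since it stands for values too small to be held. The code was tested on simulated data with known members. Python 3.11.15, numpy 2.4.6, pandas 2.3.3, scipy 1.17.1 and matplotlib 3.10.9 were used.

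The members, the 31 gene lists and the tests were chosen with earlier results of these data known. Named genes were taken from the 15 with most entries, the 15 widest entries and the 15 lowest p-values. They were also taken from the 12 lncRNA genes of greatest summed width and the 4 of greatest summed width in each list. The 10 widest spliced entries and the 10 nearest a WT entry were used too. Not every gene of these sets is named in the text. Other named genes are said to be chosen after their values were seen or are given as members of a list. Of the lists not described in the report, G protein coupled receptors gave 14 of 28 KO genes without a WT peak, collagens and matrix 4 of 14, histones 0 of 2 and keratins 0 of 0. Some list members are not reported here. Alternatives changed the overlap rule, the name match, the p-value threshold and the length of the WT list.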

Additional observations from a re-analysis of the deposited data

How the results depend on the processing

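The rule itself hardly moved the numbers. Counting overlap on either strand, using whole spans (852 peaks in 797 genes), removing peaks within 1000 bases of a WT peak (853 in 798), merging entries (836 in 793), matching synonyms, asking for 50% coverage and keeping autosomes and chromosome X each left all 5 results within the limits set for them, as did merging the KO-only peaks among themselves (838). The choice of list length and p-value did move them. With the stronger 50% of the KO list there were 280 KO-only peaks in 273 genes, with an lncRNA share of 13.9% and a median width of 208.5 bases. With the WT list shortened to the length of the KO list there were 1832 in 1638 genes, with an lncRNA share of 8.90% and 23.7% near the gene end. Without KO peaks at recurring p-values there were 385 in 372 genes, with an lncRNA share of 9.87%, 30.6% near the gene end and a median width of 151 bases. The share near the gene end was 23.9% for a window of 500 bases and 62.9% for 5000 bases. Without Gm and Rik names, an alternative chosen after seeing the data like the merging of KO-only peaks, the lncRNA share was 3.27%. No paired analysis was possible because each list gives 1 value per peak for a whole genotype, and no replicate could be left out. The WT list came from 3 IP libraries and the KO list from 2, and the absence of a peak from a list does not show that a transcript was unmethylated there.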
